A study of Mus musculus with 8 samples.

Results

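The type II hair shaft keratins were taken as the 7 genes Krt81, Krt82, Krt83, Krt84, Krt85, Krt86 and Krt87, matched by symbol in the deposited count table, and all 7 were found among its 18540 genes. RNA was sequenced from mouse wound skin of 4 control samples, numbered 1, 2, 3 and 5, which received PBS, and of 4 samples treated with Z1C2Z, numbered 1, 2, 4 and 5, and values are given in that order throughout. Z1C2Z is a ZnO2/CeO2@ZIF-8 (ZCZ) nanocomposite with the higher CeO2 share, injected at the edge of full-thickness dorsal wounds at 100 μg/kg, and treatment lasted 15 days, while the time of the control samples is not stated. The study used both C57BL mice and diabetic db/db mice with a pair of wounds each. The sources used here do not say which strain, age or mouse each sequenced sample came from, so p-values measure the spread between these samples only.

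Keratin filaments are built from pairs of a type I and a type II keratin. The hard keratins of the hair shaft are made in the growing (anagen) hair follicle, where cells of the matrix move up into the cortex and cuticle, switch on hair keratin genes in sequence and are then cross-linked with keratin associated proteins. Krt85 is the earliest type II hair keratin and is made from the matrix and precortex upwards, Krt82 belongs to the hair cuticle, and Krt81, Krt83 and Krt86 belong mainly to the cortex. Krt84 is best known from the filiform papillae of the tongue, and the human counterpart of Krt87 is a pseudogene.

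Every type II hair keratin had a higher mean in Z1C2Z wound skin, and 5 of the 7 were called higher: Krt81, Krt83, Krt85, Krt86 and Krt87. A call required an edgeR adjusted p under 0.05 and a log2 fold change over 1, and 2.15% of the 15147 genes tested were called higher (3.4% in either direction). All 7 genes passed the low-count filter. The log2 fold changes lay between 2.67 for Krt84 and 4.78 for Krt81, with a median of 3.99, against a median of 0.01 over all genes tested. Every treated sample was above every control sample for 5 of the 7 genes (Krt81, Krt82, Krt83, Krt85 and Krt86), where 8.45% of all genes tested were higher and 8.82% lower without overlap. Bulk skin cannot tell more hair-forming cells from more keratin RNA per cell.

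The coding sequences of the genes are shown first, because their likeness sets how far reads could be assigned to 1 gene. Among the 6 members with an annotated transcript in GENCODE M21 (all but Krt85), Krt81, Krt83, Krt86 and Krt87 shared between 89.7% and 93.8% of their aligned coding bases with each other. Krt82 and Krt84 shared between 67.9% and 71.8% with any other member. The following 60-base window, coding bases 568 to 627 of Krt83, is the stretch aligned without gaps and in frame in which the other 5 genes, summed, differ most from Krt83, with bases that differ from Krt83 in capitals.
Krt83: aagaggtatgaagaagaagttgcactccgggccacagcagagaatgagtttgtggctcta
Krt81: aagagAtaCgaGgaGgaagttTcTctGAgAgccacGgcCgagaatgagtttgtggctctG
Krt86: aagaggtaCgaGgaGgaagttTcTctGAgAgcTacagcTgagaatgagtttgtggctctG
Krt87: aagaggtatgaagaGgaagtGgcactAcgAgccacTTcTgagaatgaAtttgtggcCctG
Krt84: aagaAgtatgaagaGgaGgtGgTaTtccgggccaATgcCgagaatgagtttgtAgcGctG
Krt82: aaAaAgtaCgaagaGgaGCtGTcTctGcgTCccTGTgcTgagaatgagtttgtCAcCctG
Even there, Krt81 differed from Krt83 at 12 bases, Krt86 at 11 and Krt87 at 10. Elsewhere Krt81 and Krt86 held an identical run of 374 coding bases, and Krt81 and Krt83 one of 143. Of all 50-base stretches of its transcript, Krt81 shared 43.5% exactly with another of these 6 members, Krt86 43.3%, Krt83 23.2% and Krt87 17.0%, whereas Krt82 and Krt84 shared 0%. The counting program is not given in the sources used here, so the split of reads among Krt81, Krt83, Krt86 and Krt87 is uncertain, while Krt82 and Krt84 had no such stretch in common with these members.

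Krt85 (Entrez 53622), the early keratin of the matrix and cuticle, yielded 927, 2193, 4104 and 972 counts in the control group, against 10567, 22642, 20138 and 4725 under Z1C2Z. In CPM, which are counts scaled to the normalized size of each library, control samples lay between 27.4 and 113 and treated samples between 131 and 587, without overlap. The group means were 58.5 ± 39.2 CPM (SD, n = 4) and 380 ± 206 CPM (SD, n = 4), a 6.49-fold rise (log2 fold change 2.70, standard error 0.57, edgeR adjusted p = 0.0319). Among the 7 genes it had the lowest adjusted p and, beside Krt84, the smallest fold.

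The cortex keratins rose about equally. Krt81 (Entrez 64818) had 29, 240, 765 and 128 counts in the control samples and 3817, 13465, 16401 and 829 counts in the treated samples. Its mean was 8.09 ± 8.95 CPM in the control group against 223 ± 187 CPM in the treated group (SD, n = 4 each), a 27.4-fold rise (log2 fold change 4.78, standard error 1.09, edgeR adjusted p = 0.0369). Z1C2Z-2 and Z1C2Z-4 were far above the rest, and Z1C2Z-5, at 23.0 CPM, was just above control-3, at 21.1 CPM.

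Krt83 (Entrez 100126226) had 32, 324, 1016 and 121 counts in the control samples against 4894, 19029, 18872 and 1040 counts in the treated samples. It rose 27.2-fold, from 10.4 ± 12.2 to 283 ± 235 CPM (SD, n = 4 each; log2 fold change 4.76, standard error 1.14, edgeR adjusted p = 0.0399). The lowest treated sample had 28.8 CPM and the highest control sample 28.0 CPM. Krt86 (Entrez 16679) had 19, 216, 621 and 74 counts in the control samples and 3139, 11166, 12537 and 674 counts in the treated samples. It rose 27.3-fold, from 6.46 ± 7.44 to 178 ± 147 CPM (SD, n = 4 each; log2 fold change 4.77, standard error 1.11, edgeR adjusted p = 0.0386), and here too the groups did not overlap but came within 1.09-fold of each other.

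Krt87 (Entrez 406219) had 55, 455, 1365 and 120 counts in the control samples and 5271, 14456, 12999 and 1330 counts in the treated samples. It rose 15.9-fold (log2 fold change 3.99, standard error 1.02, edgeR adjusted p = 0.0469). The groups overlapped narrowly, since Z1C2Z-5 had 36.9 CPM and control-3 had 37.6 CPM.

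Krt82 (Entrez 114566), the cuticle keratin, had 6, 171, 428 and 43 counts in the control samples and 1498, 4117, 3272 and 429 counts in the treated samples. Its mean was 4.49 ± 5.24 CPM in the control group and 60.7 ± 42.0 CPM in the treated group (SD, n = 4 each). Its estimate of 3.74 on the log2 scale (standard error 1.00) missed the threshold at an edgeR adjusted p of 0.0512, although every treated sample was above every control sample. The gap was 11.9 CPM in Z1C2Z-5 against 11.8 CPM in control-3.

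Krt84 (Entrez 16680) had the highest adjusted p of the 7 genes. It had 17, 80, 67 and 20 counts in the control samples and 80, 461, 710 and 58 counts in the treated samples. In CPM this was 1.31 ± 0.851 against 8.41 ± 7.86 (SD, n = 4 each), or 2.67 on the log2 scale (standard error 0.82), and the edgeR adjusted p was 0.0741. Z1C2Z-1, at 2.26 CPM, was level with control-2, at 2.22 CPM, and Z1C2Z-5, at 1.61 CPM, was below control-2 and control-3, so only Z1C2Z-2 (11.9 CPM) and Z1C2Z-4 (17.8 CPM) stood clear of the control range.

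**Figure D1:**
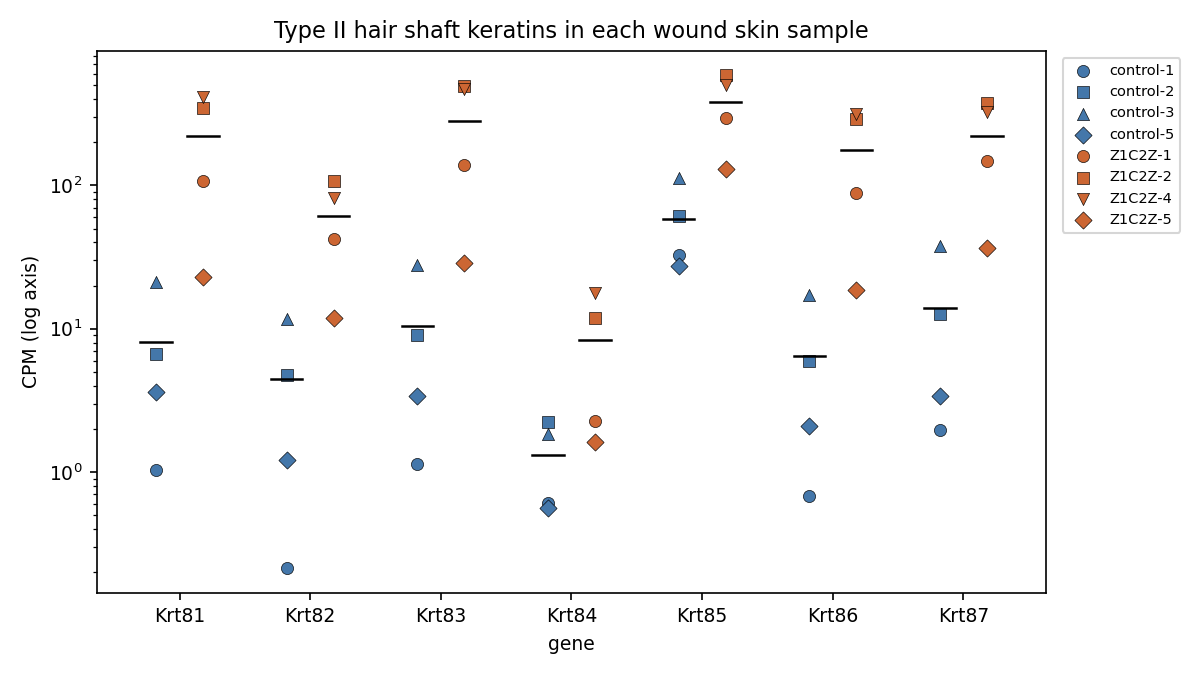
CPM (log axis) of each type II hair shaft keratin in the 4 control samples (blue) and the 4 Z1C2Z samples (orange), 1 point per sample with the marker shape giving the sample number and a bar at the group mean. Z1C2Z-2 and Z1C2Z-4 were highest for every gene, and Z1C2Z-5 lay beside control-3, for example at 28.8 and 28.0 CPM of Krt83.

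An exact permutation of the sample groups (two-sided, on log2 CPM) gave p = 0.0286, the smallest that 4 samples against 4 allow, for Krt81, Krt82, Krt83, Krt85 and Krt86. The same exact test gave p = 0.0571 for Krt87 and p = 0.114 for Krt84. The order of the samples was almost the same for each gene. Control-3 was the highest control sample for 6 of the 7 genes and control-2 for Krt84. Z1C2Z-5 was the lowest treated sample for all 7. The CPM of Z1C2Z-5 was between 0.871-fold (Krt84) and 1.16-fold (Krt85) that of control-3, so these 2 samples were close throughout. Within the treated group, the highest sample exceeded the lowest 17.9-fold for Krt81 and 4.48-fold for Krt85. Within the control group the spread was 55.3-fold for Krt82, 20.5-fold for Krt81 and 4.13-fold for Krt85. In every sample the 7 genes together made up a small part of the library, from 0.00376% to 0.0226% of all counts in the control samples and from 0.0260% to 0.228% in the treated samples.

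The calls rested on several single libraries. When control-2 or control-5 was left out, or a treated sample other than Z1C2Z-5, 0 of the 7 genes were called (edgeR), with all 7 at an unadjusted p under 0.05 in each of these fits. With all 8 libraries, 28% of the genes tested (4248) were at an unadjusted p under 0.05. In the same 5 fits 0 of all genes were called higher, apart from 8 without control-2, and between 3100 and 4208 genes had an unadjusted p under 0.05. Without control-1, 4 genes were called and Krt87 missed the threshold (edgeR adjusted p = 0.0561). Without control-3, 6 genes were called, Krt82 among them. Without Z1C2Z-5, all 7 were called, with an edgeR adjusted p of 0.0291 for Krt82 and 0.0336 for Krt84. With Z1C2Z-2 and Z1C2Z-4 both left out, an alternative added once the data had been seen, the median log2 fold change of the 7 genes was 2.73 and 0 were called, with 6 at an unadjusted p under 0.05. Krt84 had a log2 fold change of 0.55 there.

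**Figure D2:**
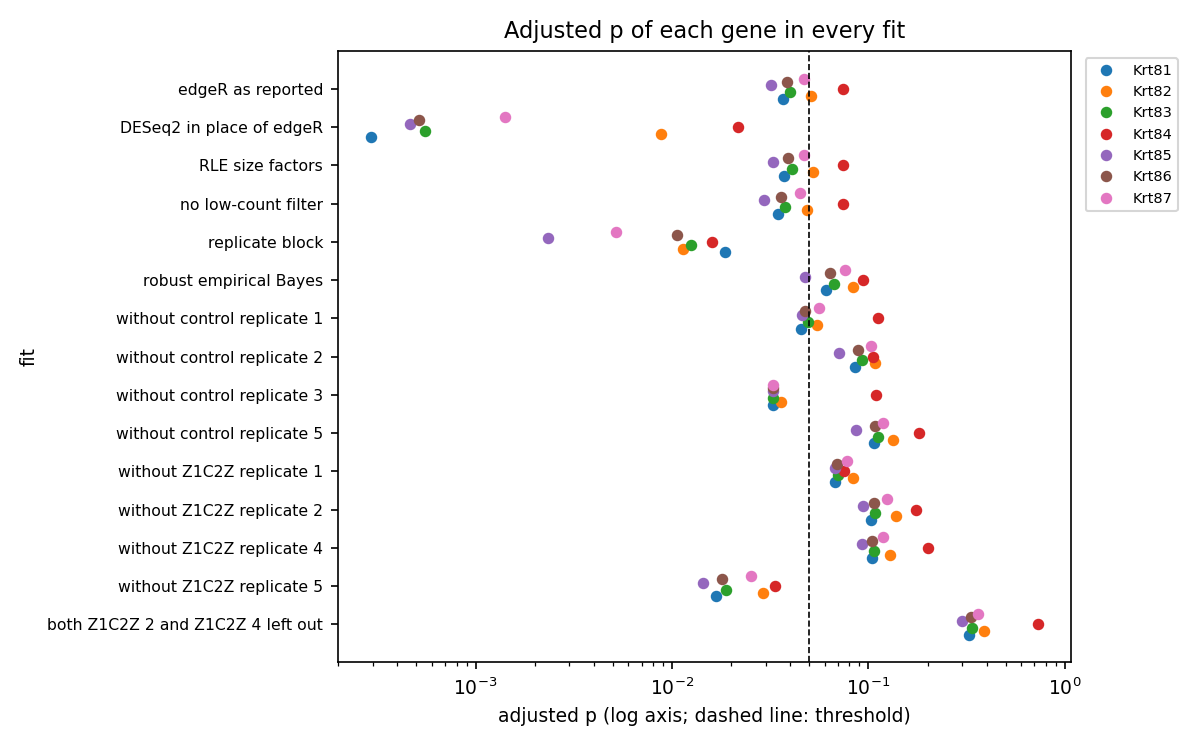
Adjusted p (log axis) of each of the 7 genes in every fit, with the dashed line at 0.05. All 7 genes lay left of the line with DESeq2, with the replicate block and without Z1C2Z-5, and all 7 lay right of it in the fits without control-2, without control-5 and without each treated sample other than Z1C2Z-5, and with Z1C2Z-2 and Z1C2Z-4 both left out.

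The make-up of the type II hair keratin pool also differed between samples. Krt85 supplied 85.4%, 59.6%, 49.1% and 65.8% of the summed counts of the 7 genes in the control samples, and 36.1%, 26.5%, 23.7% and 52.0% in the treated ones. Its share was thus lower in the samples with more type II keratin counts, lowest in Z1C2Z-4 and Z1C2Z-2 and highest in control-1, and the groups overlapped at control-3 and Z1C2Z-5. Krt83 went the other way, from 2.95% of the counts in control-1 to 12.1% in control-3, 11.5% in Z1C2Z-5 and 22.3% in Z1C2Z-2. Krt84 had between 0.801% and 2.18% of the counts in the control samples and between 0.273% and 0.836% in the treated samples.

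**Figure D3:**
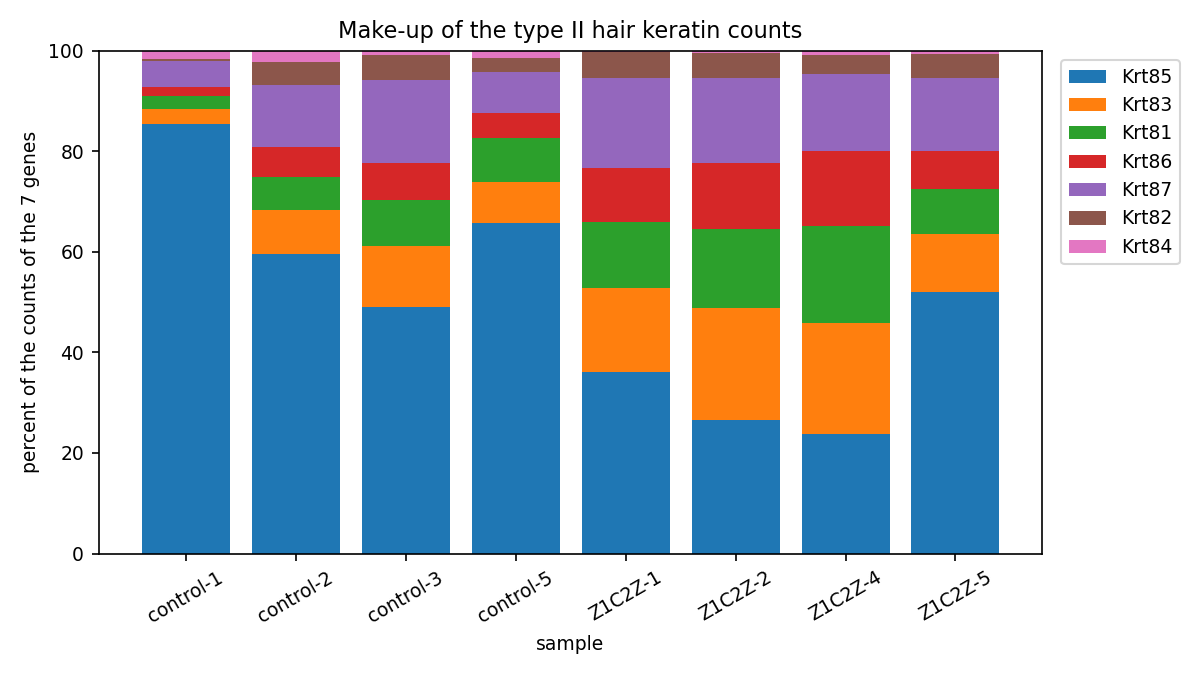
Percent of the summed counts of the 7 type II hair keratin genes that came from each gene, 1 bar per sample. Krt85 (blue) took 85.4% of the counts in control-1 and 23.7% in Z1C2Z-4, while Krt83 and Krt81 widened.

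Ratios between 2 genes of the same library compare their changes without regard to library size. Krt83, which had the most counts of the cortex keratins in the treated group, was the common denominator in 6 ratios. Each ratio was tested by exact permutation of the samples (two-sided). The denominator was thus picked from the treated values, and its log2 fold change was 4.76, against 2.70 for Krt85 and 2.67 for Krt84. A lower treated ratio for genes with a smaller fold follows from this choice, so these p-values are not separate support for a difference. The counts of Krt86 were between 0.594 and 0.667 times those of Krt83 in the control samples and between 0.587 and 0.664 times in the treated samples, so the ratio varied 1.14-fold over 8 libraries (exact p = 0.514). The ratio of Krt81 to Krt83 varied 1.495-fold (exact p = 0.457). These are the genes with exactly shared stretches of transcript, and the part of read sharing in their steady ratios was not tested.

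The count ratio of Krt85 to Krt83 was 28.97, 6.77, 4.04 and 8.03 in the control samples and 2.16, 1.19, 1.07 and 4.54 in the treated samples. The mean log2 ratio differed by -2.25 (exact p = 0.0571, 0.171 adjusted over the 6 ratios), with an overlap between control-3 and Z1C2Z-5. For Krt84 the ratio to Krt83 was between 0.0659 and 0.531 in the control samples and between 0.0164 and 0.0558 in the treated samples. The groups did not overlap, and the difference of -2.69 in mean log2 ratio reached an exact p = 0.0286, the smallest the design allows, which became 0.171 over the 6 ratios. For Krt82 and Krt87 the log2 ratio to Krt83 differed by -0.41 (exact p = 0.314) and -0.54 (exact p = 0.114). None of the 6 ratios passed after adjustment, and a single ratio at the smallest p cannot pass.

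**Figure D4:**
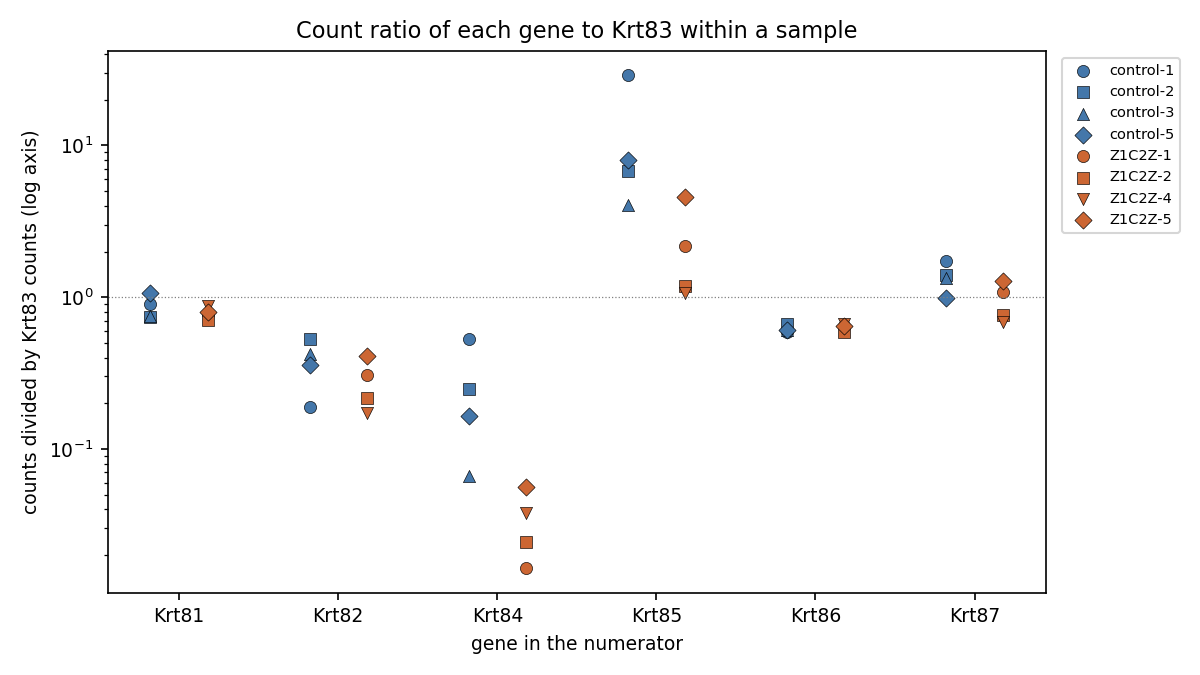
Counts of each gene divided by the counts of Krt83 in the same sample (log axis), for the 4 control samples (blue) and the 4 Z1C2Z samples (orange). The Krt86 ratio stayed between 0.587 and 0.667, while the Krt85 ratio ran from 1.07 to 28.97 and the Krt84 ratio from 0.0164 to 0.531.

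Levels can be compared between genes only per length. In CPM per kilobase of the GENCODE M21 transcript, for the 6 genes with one, the medians over the treated samples were 174 for Krt83, 124 for Krt81, 104 for Krt87, 96.2 for Krt86, 29.5 for Krt82 and 2.76 for Krt84. In the control samples the medians were 3.53 for Krt83, 3.51 for Krt87, 2.79 for Krt81, 2.06 for Krt86, 1.41 for Krt82 and 0.477 for Krt84. The spread of each gene over the samples of a group was larger than the steps between Krt83, Krt81, Krt87 and Krt86. The split of reads among these genes is also uncertain, and their shared stretches differ in extent, so their order is not settled. Krt84 was the lowest in 7 of the 8 samples. In control-1 Krt82 was lower still, at 0.101 CPM per kilobase against 0.235 for Krt84, from 6 and 17 counts.

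The type I hair keratins are the partners of these genes in the filament. All 9 of those listed passed the low-count filter and all 9 were called higher, with log2 fold changes between 2.47 and 4.83 and a median of 3.97, but 1 of the 9 was called with robust empirical Bayes. Krt35, the early type I keratin that pairs with Krt85, had 16.0, 33.8, 55.4 and 17.9 CPM in the control samples and 138, 265, 212 and 68.3 CPM in the treated samples (log2 fold change 2.47, standard error 0.50, edgeR adjusted p = 0.0306). It had the smallest fold of its type, as Krt85 had among the called type II genes. Krt33a, Krt31 and the other cortex partners had larger ones (4.36 and 4.31 for these 2, edgeR adjusted p = 0.0420 and 0.0407).

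Paired genes kept step to different degrees. The counts of Krt85 were between 1.53 and 2.06 times those of Krt35 in the control samples and between 1.92 and 2.39 times in the treated samples, a 1.56-fold range over 8 libraries. Krt82 had between 0.0968 and 0.673 times the counts of Krt32, the type I cuticle keratin, in the control samples and between 0.647 and 0.840 times in the treated samples, and the lowest ratio was that of control-1. For Krt84 and type I Krt36 the ratio was 0.416 to 1.42 in the control samples and 0.16 to 0.821 in the treated samples. For Krt86 and Krt31 it was 0.543 to 0.725 in the control samples and 0.669 to 1.06 in the treated samples. Summed over both families, the ratio of type II to type I hair keratin counts was between 1.12 and 1.48 in the control samples and between 1.05 and 1.19 in the treated samples, and the ranges overlapped. The mean log2 ratio differed by -0.14 (treated minus control) with all 7 genes and by 0.87 when Krt85 was left out of the sum. Krt35, its partner, stayed in the type I sum, with 451 of 731 counts in control-1 and 10217 of 81252 in Z1C2Z-2. The value of 0.87 thus comes from sums that no longer match, and leaving out Krt35 as well was not tested.

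Other keratins of skin differed in part by compartment, with Krt2 as an exception. Of 8 inner root sheath and companion layer keratins tested, which line the channel of the growing hair, 6 were called higher, with a median log2 fold change of 2.46 and a range of 1.87 (Krt75) to 3.14 (Krt26), and 3 were called with robust empirical Bayes and 3 without control-1. Krt71 and Krt25, the most abundant called members, had log2 fold changes of 2.48 and 2.45 (edgeR adjusted p = 0.0449 and 0.0380). Of 7 interfollicular type II keratins tested, 1 was called higher, Krt2, which had 5 to 18 counts in the control samples and 25 to 177 counts in the treated samples (log2 fold change 3.26, edgeR adjusted p = 0.0325). The main epidermal keratins Krt1 (0.27, edgeR adjusted p = 0.337) and Krt5 (0.11, edgeR adjusted p = 0.621) did not pass. Of the 4 wound keratins, which epidermis at a wound edge makes, 0 were called with edgeR and 0 with DESeq2, 0 had an unadjusted p under 0.05, and Krt6a, Krt6b and Krt16 had log2 fold changes of -0.73, -0.74 and -0.61 (edgeR adjusted p = 0.273, 0.328 and 0.264) and Krt17 one of 0.28 (edgeR adjusted p = 0.312).

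**Figure D5:**
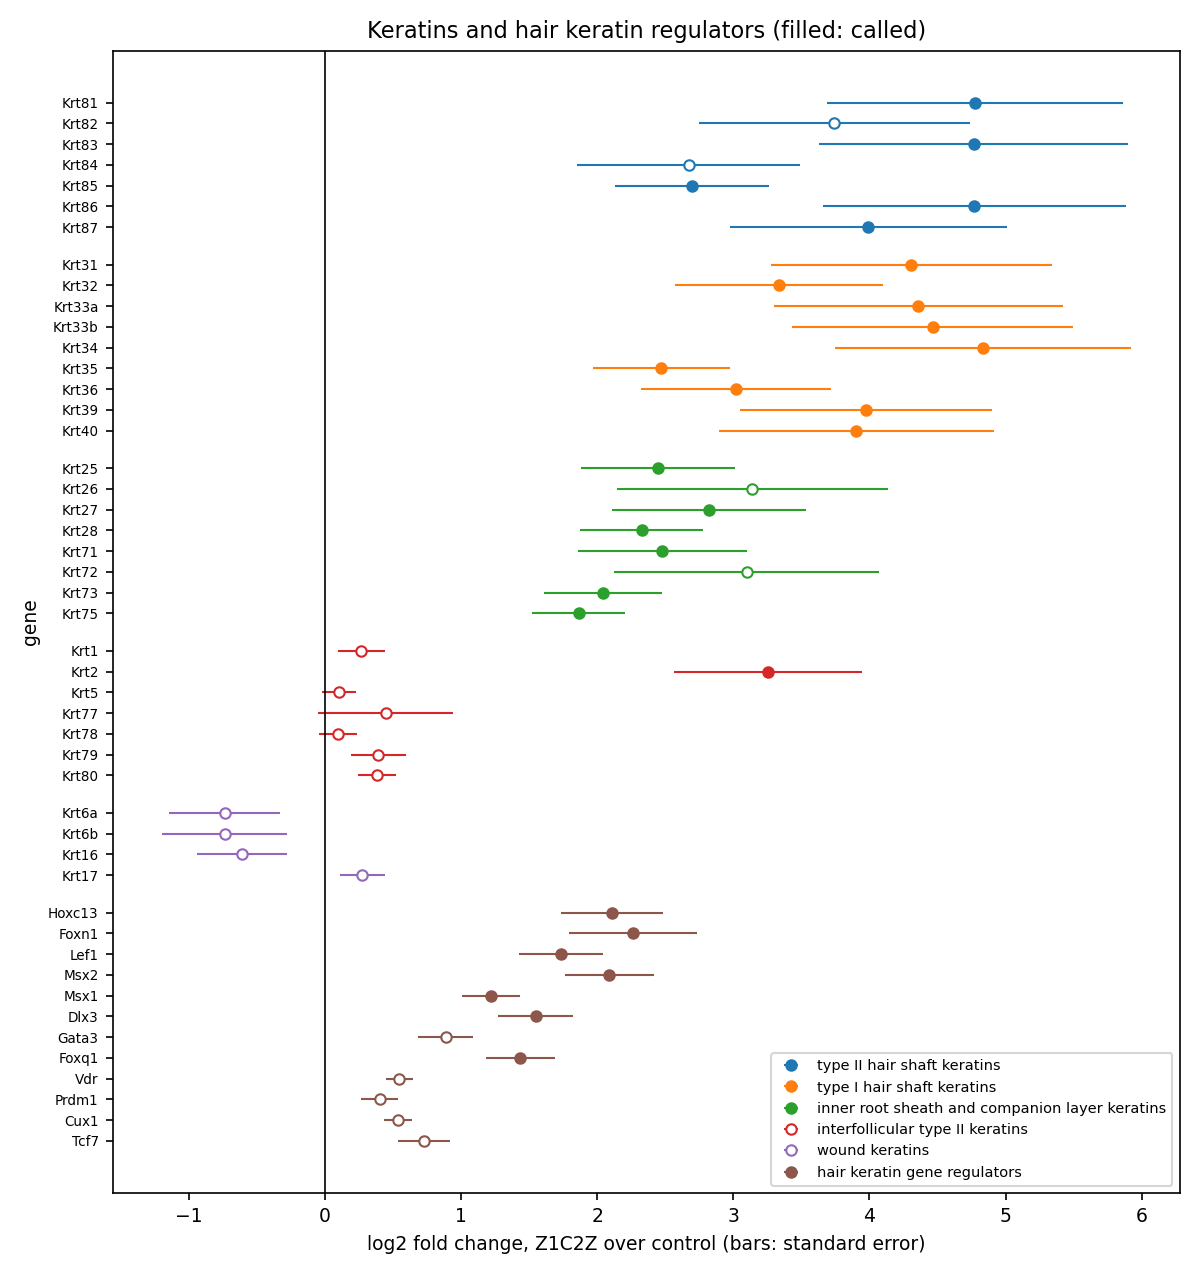
Log2 fold change of Z1C2Z over control with its standard error for the type II and type I hair keratins, the inner root sheath and companion layer keratins, the interfollicular type II keratins, the wound keratins and the hair keratin gene regulators, with called genes filled. Both hair keratin families lay between 2.47 and 4.83, the inner root sheath keratins between 1.87 and 3.14, and the wound keratins between -0.74 and 0.28. The interfollicular type II keratins lay between 0.10 and 3.26 (Krt2), and the regulators between 0.40 and 2.26.

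Among 12 transcription factors known to act on hair keratin genes or in the hair matrix, 7 were called higher and 0 lower, with a median log2 fold change of 1.33. Hoxc13, a homeobox factor that binds hair keratin promoters, had 12.3, 16.1, 23.8 and 8.54 CPM in the control samples and 55.1, 91.0, 82.2 and 33.7 CPM in the treated samples (log2 fold change 2.11, standard error 0.38, edgeR adjusted p = 0.0299). Its groups did not overlap, and its samples had the order seen for Krt85. That order was not particular to Hoxc13, since Msx2, Foxn1, Krt25 and Krt71 had it too. Dlx3 (1.55, edgeR adjusted p = 0.0299) and Msx2 (2.09, edgeR adjusted p = 0.0299) rose as well, and so did Foxn1, the factor lost in nude mice (2.26, edgeR adjusted p = 0.0315). Vdr, the vitamin D receptor, had a log2 fold change of 0.55 and passed the adjusted threshold (edgeR adjusted p = 0.0299) without the required fold.

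RefSeq promoter sequences were held for 2 of the 7 members, Krt82 and Krt84, and the 250 bases before each transcription start are printed because these 2 genes also stand apart from the cortex keratins in sequence. Capitals mark 3 motifs chosen after the sequences were seen: TTTTATG, a run like the AT-rich sites of HOX factors, ATAAAAG, which resembles the core promoter box, and CCCAAGCTCATAAA, the longest stretch the pair shares. Both promoters are on the minus strand of GRCm38.p6, which need not be the build of the counts, at chr15:101550660-101550909 for Krt82 and chr15:101532821-101533070 for Krt84.
Krt82: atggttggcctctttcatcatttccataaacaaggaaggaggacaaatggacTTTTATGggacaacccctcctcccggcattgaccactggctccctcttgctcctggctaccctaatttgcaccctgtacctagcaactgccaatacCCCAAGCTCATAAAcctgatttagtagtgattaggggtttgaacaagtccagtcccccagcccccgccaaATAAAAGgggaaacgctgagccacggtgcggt
Krt84: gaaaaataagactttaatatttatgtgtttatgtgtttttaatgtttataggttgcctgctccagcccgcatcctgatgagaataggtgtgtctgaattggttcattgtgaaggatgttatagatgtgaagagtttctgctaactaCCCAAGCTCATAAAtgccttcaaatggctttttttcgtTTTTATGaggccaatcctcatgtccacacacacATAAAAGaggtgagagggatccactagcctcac
The 14-base stretch began 102 bases before the start in Krt82 and 104 bases before it in Krt84. On both strands of all 32851 promoter windows of 250 bases, only these 2 held it (0.00609%). Both held it by the way it was chosen, so this share is not evidence of a shared element. TTTTATG began 198 bases before the start of Krt82 and 66 bases before that of Krt84, and on either strand it was in 6 of the 7 type I hair keratin promoters in the table, in 1 of 14 promoters of the other listed keratins and in 3.77% of all windows. ATAAAAG began 32 and 33 bases before the start. It was in 1 of the 7 type I promoters, in 6 of the 14 others and in 4.83% of all windows, and the opposite strand of each run overlapped the other, for ATAAAAG in Krt82 and for TTTTATG in Krt84. Such matches describe these letters and are not evidence of binding.

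Genes outside the family with the most similar pattern were ranked by Pearson's r of log2 CPM with the mean standardized log2 CPM of the 7 members over the 8 samples, which differ in group as well as within groups. The highest keratins were Krt33b, Krt32, Krt33a, Krt31 and Krt34 (r between 0.997 and 0.998), all type I hair keratins. The highest keratin associated protein genes were Krtap3-3, Krtap11-1, Krtap4-7, Krtap4-1 and Krtap5-2 (r between 0.996 and 0.997). Among other genes Gm45618, Gm45337, S100a3, Gm40460 and Ly6g6d came first (r between 0.997 and 1.00), and S100a3, a calcium-binding protein of the hair cuticle, rose by 3.31 on the log2 scale (edgeR adjusted p = 0.0411).

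Other hair shaft protein genes and genes of other cell types in the same skin samples moved in part with the hair keratins. Of 9 other hair shaft proteins tested, 5 were called higher (median log2 fold change 2.73), among them S100a3, Tchhl1 and Padi3. That count was 9 with DESeq2, 3 with RLE size factors, 1 without control-1 and 0 with robust empirical Bayes, and 8 of the 9 had an unadjusted p under 0.05. All 8 melanocyte genes were called higher (median 1.74), led in abundance by Dct and Tyrp1 (1.25 and 1.39, edgeR adjusted p = 0.0315 and 0.0303), and their summed level was 127 to 225 CPM in the control samples and 303 to 704 CPM in the treated samples. The calls in the keratin, regulator, hair shaft and melanocyte lists all fell to 0 in the same 5 fits with 1 library left out as the type II genes did. Of 8 cell cycle genes 0 were called with edgeR or DESeq2 and 2 had an unadjusted p under 0.05, a share close to the 28% of all genes, with a median log2 fold change of 0.19. Of 12 dermal papilla genes 1 was called higher (Rspo2) and 1 lower (Fgf7), and of 9 sebaceous gland genes 1 was called higher (Mc5r). Among the dermal papilla genes 7 had an unadjusted p under 0.05, against 28% of all genes, with 6 log2 fold changes above 0 and 6 below. Their summed level was 586 to 749 CPM in the control samples and 380 to 568 CPM in the treated samples. Vcan was the largest part of it, with means of 440.6 and 258.5 CPM. With 1 library left out, 0 dermal papilla genes were called higher in 7 of 8 fits and 0 lower in 5, and 0 sebaceous gland genes in 6. The Rspo2 call was also lost with the replicate block, with robust empirical Bayes and without the low-count filter, and the Mc5r call with the block. All 12 skeletal muscle genes had a log2 fold change under 0 (median -0.60). Acta1, Myh1 and Myh2 passed the adjusted threshold without the required fold (-0.86, -0.61 and -0.97 on the log2 scale, edgeR adjusted p = 0.0303, 0.0341 and 0.0303), and 8 of the 12 had an unadjusted p under 0.05, against 28% of all genes. With edgeR and DESeq2 alike 0 were called, but 2 were called lower without control-3 and 1 with the replicate block, and their summed level was 3966 to 7460 CPM in the control samples and 3296 to 3824 CPM in the treated samples. Fibroblast genes summed to 55900 to 79270 CPM in the control samples, to 54530 and 61360 CPM in Z1C2Z-1 and Z1C2Z-5, and to 44440 and 43970 CPM in Z1C2Z-2 and Z1C2Z-4. With edgeR 0 of the 7 were called (median -0.53, 6 at an unadjusted p under 0.05 against 28% of all genes, 0 called with DESeq2). Dcn and Lum passed the adjusted threshold without the required fold (-0.45 and -0.67 on the log2 scale, edgeR adjusted p = 0.0320 and 0.0299). Neutrophil genes summed to 572 to 1504 CPM in the control samples and 169 to 656 CPM in the treated samples, lowest in Z1C2Z-4, with 0 of 7 called with edgeR (median -1.19, 4 at an unadjusted p under 0.05) and 2 called lower with DESeq2, 2 without control-1 and 3 without Z1C2Z-5. With edgeR and DESeq2, 0 were called among 8 macrophage genes (median -0.40), 8 adipocyte genes (-0.29) and 8 interfollicular keratinocyte genes (0.51), of which 3, 4 and 3 had an unadjusted p under 0.05, against 28% of all genes, and 2 of the keratinocyte genes were called higher without control-1. The part of any of these changes in the keratin differences was not tested.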

How the data were processed

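RNA-seq of 8 mouse wound skin samples was analysed. The values are read counts that the authors deposited without normalization, for 18540 genes and 1 column per sample. Per the labels, ribosomal RNA was depleted and second-strand cDNA carried dUTP. The aligner, counting program, strand setting, annotation and genome build are not given in the sources used here. The table held 0 unused columns of per-sample values, and the totals lay between 28856790 and 38974888 counts per sample. Groups came from the sample titles, and the name Z1C2Z from the study's heat map, which carries the same numbers.

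Counts were filtered with filterByExpr (15147 genes kept), normalized by TMM and tested in R 4.3.3 with edgeR 4.0.16 (quasi-likelihood test, no covariates, Benjamini-Hochberg adjustment over all genes tested). A gene was called at an adjusted p below 0.05 and a fold change above 2 in either direction. Standard errors came from the F statistic, and log2 CPM used a prior count of 2. Exact permutation tests used all 70 arrangements. The alternatives were DESeq2 1.42.0, RLE size factors, no low-count filter, robust empirical Bayes, the sample number as a block and each sample left out. The steps were tested on simulated counts.

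Transcripts came from GENCODE M21 and promoters from RefSeq (GRCm38.p6), matched by symbol and Entrez identifier. Coding sequences were aligned globally with Biopython 1.88. The members and gene lists were chosen with earlier results of these data known. The text names all members, at most 3 genes per list (called genes first, then by mean log2 CPM), the 5 genes of each class most like the members, and further genes whose values were seen first: Krt2, Krt5, Krt26, Krt35, Krt36, Krt75, Hoxc13, Foxn1, Vdr, Rspo2, Fgf7, Vcan, Mc5r, Krt17, Acta1, Myh1, Myh2, Dcn and Lum.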

Additional observations from a re-analysis of the deposited data

How the results depend on the processing

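All 98 log2 fold changes of the 7 genes under 14 alternatives were above 0. Of them 55 kept their side of the threshold, 35 lost the call and 8 gained it. By definition only the 5 called genes could lose a call, and only Krt82 and Krt84 could gain one. Of 14 alternatives, Krt81, Krt83 and Krt86 kept the call in 7 each, Krt85 in 8 and Krt87 in 6. Krt82 stayed uncalled in 9 and Krt84 in 11. The median log2 fold change lay between 2.73 and 5.20 over the alternatives. It moved by less than the SD between samples (1.63) in each, a wide measure that says little about how stable the estimate is. The number of type II hair keratins called higher was 5. It was 7 with DESeq2, 7 with the sample number as a block, 6 without the low-count filter, 5 with RLE size factors, 1 (Krt85) with robust empirical Bayes and 0 with Z1C2Z-2 and Z1C2Z-4 both left out. Leaving out 1 sample gave between 0 and 7. Of all genes, 326 were called higher and 189 lower. DESeq2 called 490 higher and 345 lower, leaving out 1 sample gave between 0 and 463 higher and between 0 and 316 lower, and leaving out Z1C2Z-2 and Z1C2Z-4 gave 0 of each, with 1980 genes at an unadjusted p under 0.05. The cause was not tested. The block lowered the adjusted p of Krt82 and Krt84 to 0.0114 and 0.0160. For the numbers 1, 2 and 5, the deviations of like-numbered samples from their group means had correlations across genes of -0.10, -0.06 and 0.32. These correlations cannot show whether samples that share a number came from the same mouse, which is not stated. The log2 ratio of type II to type I counts turned from -0.14 to 0.87 without Krt85 and moved to -0.31 without Krt83. The type I sum was left whole in each case, Krt35 included, so these sums do not match in make-up. Depth limits Krt84, with 17 to 80 counts per control sample, and Krt82, with 6 counts in control-1. No sample stood apart from its own group by Dixon's criterion for any member.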
